A study of Mus musculus with 12 samples.

Results

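The granins and the prohormone processing enzymes of the islet secretory granule were followed in islet RNA from *Aldh1b1*tm1lacZ null mice and their wild-type controls. They comprise 10 genes, the proprotein convertases *Pcsk1* and *Pcsk2*, carboxypeptidase E (*Cpe*), the granins *Chga*, *Chgb*, *Scg2*, *Scg3* and *Vgf*, and the convertase partners *Scg5* and *Pcsk1n*. They were chosen by name, with earlier results of these data known, from the 18351 genes of the deposited table. Each of the 10 was found once and passed the filter on low values in every comparison. Islets came from wild-type mice and from mice null for *Aldh1b1*, which encodes a mitochondrial aldehyde dehydrogenase, by a *lacZ* knock-in allele that is not restricted to a cell type. Islets were taken at P1 (postnatal day 1) or at 8 weeks of age (week 8), which makes 4 groups of 3 libraries. Each P1 library was a pool from 3 mice and each week 8 library came from 1 mouse, so age and pooling cannot be told apart. All islets were kept briefly in RPMI-1640 with fetal bovine serum before RNA was taken, and the study's methods name male mice as the source of islets. P-values rest on the spread between libraries within groups of 3. The limma tests used below also draw on the spread of other genes. For the age effects and the interaction they pool the spread of all 4 groups.

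Peptide hormones are made as larger precursors that are sorted at the trans-Golgi into dense-core secretory granules. There the convertases PC1/3 (from *Pcsk1*) and PC2 (from *Pcsk2*) cut them at pairs of basic residues and carboxypeptidase E removes the basic residues left at the cut. In beta cells both convertases take part in turning proinsulin into insulin, and in alpha cells PC2 releases glucagon from proglucagon. Granins are acidic proteins that aggregate with calcium and with hormone in the granule, and several are themselves cut into peptides. 7B2 (from *Scg5*) helps proPC2 to mature, and proSAAS (from *Pcsk1n*) can inhibit PC1/3.

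The promoters of the members are shown because several hold a well-known motif. The motif was thus not chosen blind to the members, and its shares below are a description and not a test. The cAMP response element, to which CREB and related factors bind, is spelled TGACGTCA, and its shorter core TGACG lies within it. Both were searched on either strand in the 250 bases before the RefSeq start of each gene, in the assembly GRCm38.p6, which is not the build mm9 of the deposited values. RefSeq promoters were at hand for 8 of the 10 members, all but *Cpe* and *Vgf*. The full element was present in 3 of these 8, against 1.55% of 32851 mouse promoters, with its first base 78 bases before the start in *Pcsk1*, 72 in *Chgb* and 68 in *Scg2*. The core, counted also where it is part of the full element, was present in 7 of the 8, against 17.8% of all promoters, and *Pcsk1n* was the one without. The 32851 promoters were not matched to the members for GC content, which ran from 46.8% (*Pcsk1*) to 82.4% (*Pcsk2*) in the 8 members. A match of letters is a description and not a binding site. The 200 bases before the start follow, 5′ to 3′, with the full element and the core in capitals, where CGTCA is the core read on the opposite strand. They are given for the 3 genes with the full element, for *Chga* beside its family member *Chgb*, for *Pcsk2* beside *Pcsk1*, and for *Pcsk1n*.
*Pcsk1*, chr13:75089657-75089856 on the plus strand: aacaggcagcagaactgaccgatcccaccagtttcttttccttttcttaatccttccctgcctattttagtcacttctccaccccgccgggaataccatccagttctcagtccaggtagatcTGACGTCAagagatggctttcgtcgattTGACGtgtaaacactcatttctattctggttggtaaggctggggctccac
*Chgb*, chr2:132781442-132781641 on the plus strand: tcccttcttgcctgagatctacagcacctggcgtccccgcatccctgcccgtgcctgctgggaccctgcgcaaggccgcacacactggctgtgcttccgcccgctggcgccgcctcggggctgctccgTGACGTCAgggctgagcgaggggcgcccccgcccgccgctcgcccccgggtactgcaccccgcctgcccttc
*Scg2*, chr1:79440027-79440226 on the minus strand: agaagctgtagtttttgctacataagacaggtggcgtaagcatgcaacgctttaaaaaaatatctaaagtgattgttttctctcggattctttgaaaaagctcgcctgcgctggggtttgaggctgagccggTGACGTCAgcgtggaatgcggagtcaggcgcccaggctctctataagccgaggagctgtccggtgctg
*Chga*, chr12:102554741-102554940 on the plus strand: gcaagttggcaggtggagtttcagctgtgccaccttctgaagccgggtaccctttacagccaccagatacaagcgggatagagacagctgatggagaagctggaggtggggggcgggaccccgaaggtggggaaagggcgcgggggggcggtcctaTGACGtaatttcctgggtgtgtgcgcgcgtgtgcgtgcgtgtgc
*Pcsk2*, chr2:143545933-143546132 on the plus strand: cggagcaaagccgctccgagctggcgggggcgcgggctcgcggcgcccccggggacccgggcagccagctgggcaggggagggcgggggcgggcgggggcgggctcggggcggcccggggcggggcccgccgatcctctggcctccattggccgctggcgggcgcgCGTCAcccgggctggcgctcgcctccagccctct
*Pcsk1n*, chrX:7919622-7919821 on the plus strand: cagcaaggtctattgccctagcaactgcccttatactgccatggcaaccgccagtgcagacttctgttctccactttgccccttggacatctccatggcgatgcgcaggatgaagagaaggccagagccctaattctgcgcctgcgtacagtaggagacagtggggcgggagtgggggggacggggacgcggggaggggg

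Libraries held 15212080.0 to 29248285 reads assigned to genes. *Aldh1b1* had 40 to 121 reads in the 6 wild-type libraries and 0 to 3 in the 6 null libraries. The deposited value of a gene is a normalised count, its reads divided by a size factor of the library, and differences are given as log2 fold changes with their SE on the log2(normalised count + 1) scale. They were tested with limma across all genes, with a Benjamini-Hochberg adjusted p under 0.05 as the threshold for a call. None of 12 pan-endocrine genes, 12 beta, 8 alpha and 5 delta cell markers was at 0 in any library, and all libraries also held RNA of other cells. The 30 acinar (exocrine) markers took 2.19% to 6.85% of reads at P1 in wild-type libraries against 11.2% to 25.9% in null libraries. At week 8 they took 49.0% to 55.2% against 12.7% to 24.0%, and none of them was at 0 in any library. The 12 pan-endocrine genes took 0.215% to 0.246%, 0.102% to 0.161%, 0.0622% to 0.0957% and 0.197% to 0.242% of reads in the same order. In such bulk samples, fewer cells of a type and less RNA per cell cannot be told apart.

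The share of reads taken by the 10 members differed between the genotypes in opposite directions at the 2 ages. They took 1.51%, 1.34% and 1.36% of reads in the P1 wild-type libraries and 0.547%, 0.586% and 0.997% in the P1 null libraries. At week 8 they took 0.500%, 0.791% and 0.436% in wild-type and 1.64%, 1.59% and 1.80% in null libraries. The groups did not overlap at either age, null islets lying lower at P1 and higher at week 8. The P1 null library with the highest share of members had the lowest acinar share of its group, 11.2% against 22.2% and 25.9%. The week 8 wild-type library with the highest share of members had the lowest acinar share of its group, 49.0% against 49.9% and 55.2%, and the highest pan-endocrine share, 0.0957%. In P1 wild-type and week 8 null islets the library with the highest share of members was not the one with the lowest acinar share. The part of cell composition in the results below was not tested beyond the scaling to endocrine genes given with them.

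**Figure D1:**
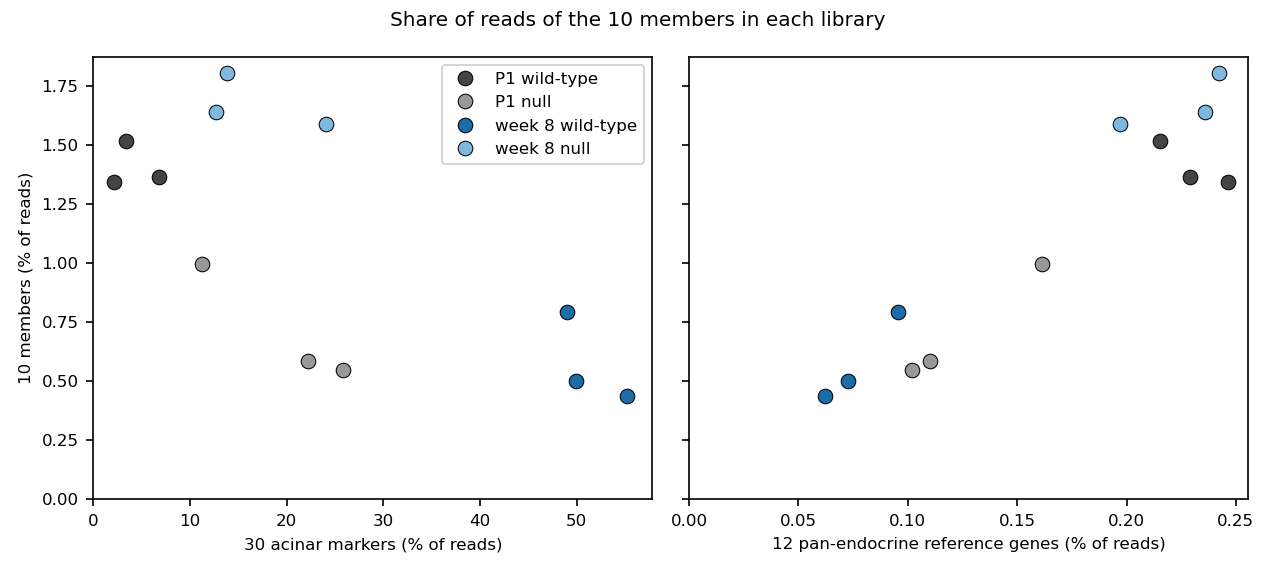
Share of reads of the 10 members (percent of a library's reads, vertical axis) against the share of 30 acinar markers (left) and of 12 pan-endocrine reference genes (right), 1 point for each of the 12 libraries. Both axes are shares of the same library and are not independent. Members took at most 0.997% of reads in the P1 null and week 8 wild-type libraries and at least 1.34% in the P1 wild-type and week 8 null libraries, and the same 6 libraries had a pan-endocrine share of at least 0.197%, against at most 0.161% in the others.

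Levels of different genes were compared within a group as RPKM, the reads per kilobase of the deposited transcript length scaled to the library's total. Neither RPKM nor rank is to be compared between groups, because acinar RNA took very different shares of that total. *Chga*, which encodes chromogranin A, was the most abundant member in every group. At P1 it had 2107 ± 176 RPKM (SD, n = 3) for wild-type and 1114 ± 424 for null islets. At week 8 the values were 1057 ± 388 and 3101 ± 58.2. The lower wild-type RPKM at week 8 was not matched by the normalised counts of *Chga*, whose log2 fold change with age was 0.32 ± 0.28 and not called. *Chga* ranked 15th, 40th, 45th and 25th of all genes per length in these groups, taken in this order here and in the next values. *Cpe* followed at 1363 ± 137, 657 ± 196, 407 ± 121 and 1246 ± 131 RPKM. The ranges of *Chga* and *Cpe* overlapped in P1 null islets and were separate in the other 3 groups. The third place belonged to *Scg2* (secretogranin II) in each group, but its range overlapped that of *Chgb* in both P1 groups and that of *Cpe* in both week 8 groups.

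The lower end of the order was as regular. *Pcsk1* and *Vgf* were the lowest of the 10 in every group, *Pcsk1* at 79.5 ± 25.2, 32.4 ± 12.8, 24.6 ± 7.46 and 90.5 ± 7.32 RPKM. *Vgf* lay below it at 62.7 ± 19.3, 30.9 ± 9.54, 10.7 ± 2.33 and 43.3 ± 18.4 RPKM, with overlapping ranges at P1 and separate ranges at week 8. *Pcsk2* was thus the more abundant convertase RNA in all 12 libraries. The middle of the order changed with age, since *Chgb* (chromogranin B) stood in place 4 of 10 in both P1 groups and in place 6 in both week 8 groups, where its range overlapped those of its neighbours in the order. *Chga* and *Chgb*, both of the chromogranin family, were further apart in the week 8 libraries. Their ratio per kilobase within a library was 3.62 to 4.30 at P1 and 8.47 to 11.2 at week 8. This ratio was not tested between the ages.

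**Figure D2:**
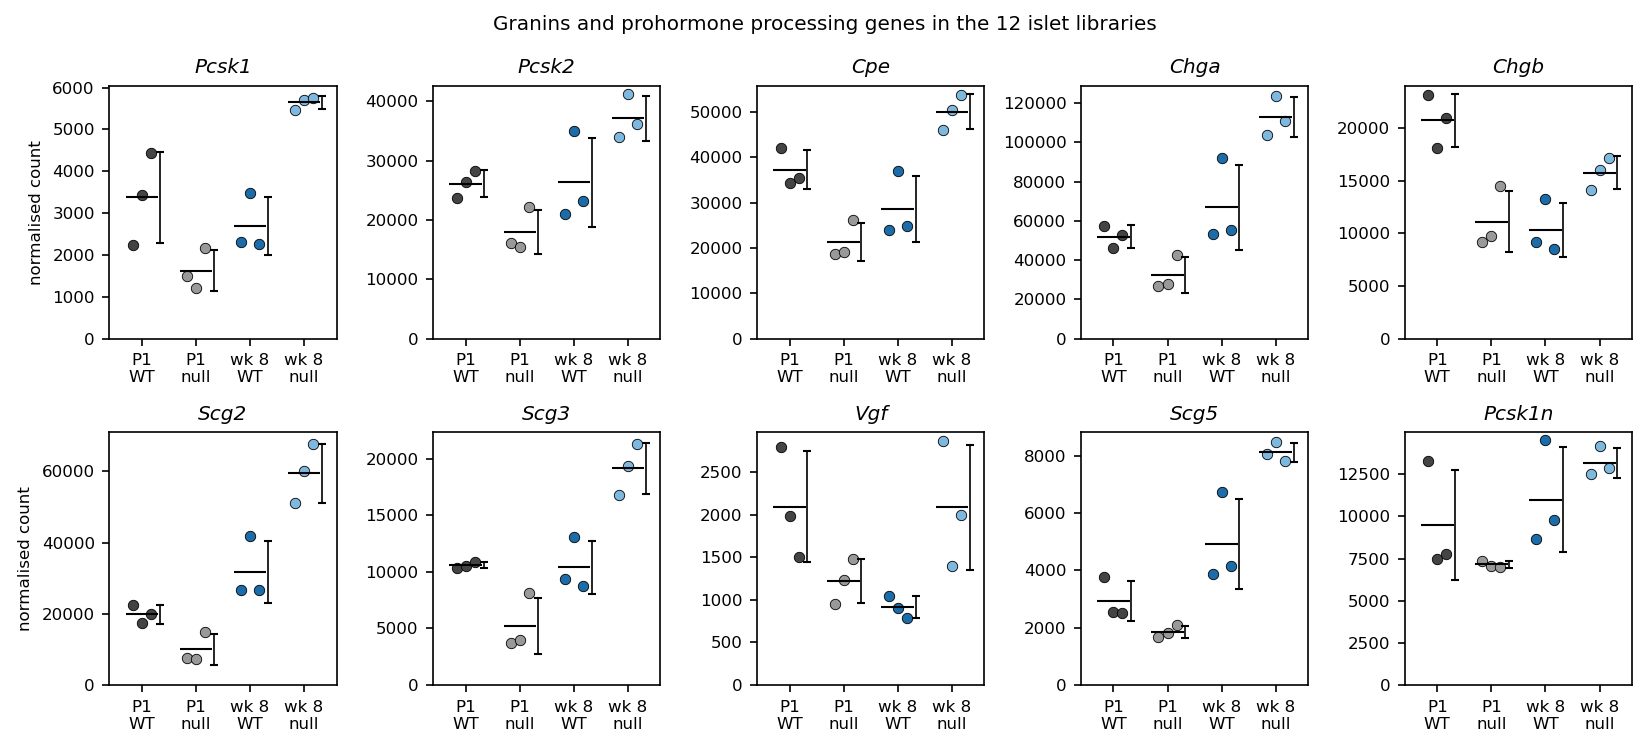
Normalised counts (linear axis from 0) of the 10 members in the 12 islet libraries, 1 panel for each gene, with P1 in grey and week 8 in blue and WT for wild-type. Points are libraries, horizontal lines are means and vertical bars are SD (n = 3). For all 10 genes the P1 null points lie below the P1 wild-type points, and for 8 genes, all but *Pcsk2* and *Pcsk1n*, the week 8 null points lie above the week 8 wild-type points. On the scale of the pan-endocrine genes *Pcsk2* and *Pcsk1n* lean the other way at both ages, and *Chgb* at week 8.

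At P1 all 10 members had lower levels in null than in wild-type islets, with no overlap between the groups, but none passed the test across all genes, and the signs of *Pcsk2* and *Pcsk1n* turned on the scale of the pan-endocrine genes. *Scg3*, whose product secretogranin III binds chromogranin A in the granule, had normalised counts of 10372, 10554 and 10892 in wild-type and 3702, 3955 and 8101 in null libraries. The wild-type libraries lay close together, and the third null library stood well above the other two. The log2 fold change was -1.11 ± 0.28 (limma adjusted p = 0.150). *Scg2* had normalised counts of 22537, 17271 and 19817 in wild-type and 7681, 7385 and 14907 in null libraries, with the same null library highest, and a log2 fold change of -1.06 ± 0.28 (limma adjusted p = 0.153). For *Pcsk1* the counts were 2245, 3438 and 4437 in wild-type and 1494, 1214 and 2161 in null libraries. Here the wild-type group was the wider one, and its first library was only just above the highest null library. The log2 fold change of *Pcsk1* was -1.04 ± 0.28 (limma adjusted p = 0.164).

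*Chgb* had 23112, 18116 and 20901 normalised counts in P1 wild-type and 9143, 9695 and 14474 in P1 null libraries, and the smallest limma adjusted p of the 10, 0.139, at a log2 fold change of -0.92 ± 0.22. *Cpe* had 42128, 34248 and 35391 in wild-type and 18671, 19003 and 26101 in null libraries (-0.82 ± 0.21, limma adjusted p = 0.153). Both again showed the third null library nearest to wild-type. *Vgf*, the precursor of several secreted peptides, had 2789, 1988 and 1503 in wild-type and 955, 1226 and 1479 in null libraries, again lower in the first pair of null libraries than in the third. *Chga* had 57532, 45908 and 52556 in wild-type and 26664, 27652 and 42715 in null libraries. Here too the third null library was the highest of its group by a wide margin. *Scg5* had 3754, 2544 and 2507 in wild-type and 1678, 1799 and 2090.2 in null libraries. *Pcsk2* had 23687, 26457 and 28245 in wild-type and 16159, 15428 and 22224 in null libraries. In these 4 genes the groups did not overlap, but for *Vgf* the lowest wild-type library (1503) was only just above the highest null library (1479). The log2 fold changes were -0.75 for *Vgf*, -0.71 for *Chga*, -0.64 for *Scg5* and -0.56 for *Pcsk2*, with limma adjusted p from 0.193 to 0.266. *Pcsk1n* differed least, by -0.36 ± 0.23, with 13279, 7446 and 7786 in wild-type and 7376, 7076 and 6988 in null libraries, and the lowest wild-type library lay just above the highest null library.

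Of the 10 members, 0 were called lower or higher at P1 by limma, against 0.0110% of the 18235 genes tested called lower and 0.0548% called higher. At an unadjusted p under 0.05 there were 9 of 10, all but *Pcsk1n*, against 15.0% of all genes, and groups without overlap in the lower direction were found for 10 of 10 members against 10.9% of all genes. The median log2 fold change of the members was -0.79, and that of all genes was 0.03. The quasi-likelihood test of edgeR on recovered reads also called 0, against 0.0125% of its genes called lower, and DESeq2 called 5 lower (*Pcsk1*, *Cpe*, *Chgb*, *Scg2* and *Scg3*), against 1.27% of its genes. Without the first wild-type library limma called *Pcsk1* lower, and without the third null library it called *Scg2* and *Scg3* lower. All 30 acinar markers lay higher in null islets, with a median log2 fold change of 2.66 and 2 calls, and the pan-endocrine genes had a median of -0.75. The beta, alpha and delta cell markers had medians of -0.87, -0.57 and -0.84, with 9 of 12, 5 of 8 and 2 of 5 at an unadjusted p under 0.05 and 0 called, and their part was not tested.

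At week 8 the direction was the opposite, and 8 of the 10 members were higher in null islets, when the authors' size factors set the scale, while on the pan-endocrine scale none was called and *Chgb* turned in sign, as did *Pcsk2* and *Pcsk1n*. *Pcsk1* had normalised counts of 2305, 3481 and 2272 in wild-type libraries and 5462, 5714 and 5759 in the null animals MUT218, MUT219 and MUT229. The null animals lay within a narrow range far above the wild-type libraries, of which the second was the highest. *Pcsk1* rose by 1.10 ± 0.16 on the log2 scale (limma adjusted p = 0.00137), which is 2.14-fold. *Vgf* had 1046, 908 and 787 in wild-type and 2859, 1399 and 1999 in null libraries, with the widest null group of the 10 relative to its mean and a rise of 1.14 ± 0.23 (limma adjusted p = 0.00524).

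The other granins and *Cpe* rose by smaller factors. *Scg2* had 26739.6, 41699.6 and 26614 normalised counts in wild-type and 50977, 59994 and 67518 in null libraries, a log2 fold change of 0.93 ± 0.22 (limma adjusted p = 0.0127). *Scg3* had 9351, 13068 and 8742 in wild-type and 16823, 19357 and 21269.7 in null libraries, a log2 fold change of 0.90 ± 0.18 (limma adjusted p = 0.00498). In both, as in *Pcsk1*, the second wild-type library came nearest to the null animals. *Cpe* had 23943, 37009.7 and 24812 in wild-type and 46005, 50398 and 53717 in null libraries, and rose by 0.83 ± 0.20 (limma adjusted p = 0.0140). *Chga* had 53434, 91938 and 55212 in wild-type against 103872, 123700.0 and 110819 in null libraries and rose by 0.80 ± 0.26 (limma adjusted p = 0.0460), a call that held in 1 of 6 fits that each left out a library. *Chgb* had 9187, 13236 and 8540.5 in wild-type against 14102, 16032 and 17150.4 in null libraries and rose by 0.63 ± 0.18 (limma adjusted p = 0.0254), a call that held in 2 of 6 such fits. The second wild-type library was the highest of its group for all 5 of these genes.

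Of the convertase partners *Scg5* was called at week 8 and *Pcsk1n* was not, and the difference between them was not tested. *Scg5*, which encodes the PC2 chaperone 7B2, had 3884, 6735 and 4140.4 normalised counts in wild-type and 8048, 8469 and 7821 in null libraries at week 8 and rose by 0.77 ± 0.19 (limma adjusted p = 0.0151). *Pcsk1n*, which encodes proSAAS, had 8661, 14556 and 9782 in wild-type against 12489, 14186 and 12888 in null libraries, with a log2 fold change of 0.30 ± 0.19 that did not pass (limma adjusted p = 0.272). Its second wild-type library was the highest of all 6, so the groups overlapped. *Pcsk2* overlapped less, with 20927, 34934 and 23225 in wild-type and 33958, 41237 and 36164 in null libraries and 0.53 ± 0.21 on the log2 scale (limma adjusted p = 0.0906). The second wild-type library of *Pcsk2* lay above null animal MUT218 only. Of the convertases, *Pcsk1* was thus called at week 8 and *Pcsk2* was not. The difference between the 2 was tested as their ratio.

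The 8 called members stand against 12.3% of the 18126 genes tested called higher at week 8 and 15.8% called lower. Groups without overlap in the higher direction were likewise found for 8 of 10 members, against 21.5% of all genes. The median log2 fold change was 0.82 for the members and 0.02 for all genes. *Pcsk1*, *Scg3* and *Vgf* were called in 6 of 6 fits that each left out 1 library, *Scg2* and *Scg5* in 4, *Cpe* in 3, *Chgb* in 2 and *Chga* in 1. The count was 4 without the first wild-type library, 3 without the third, 10 without the second and 4 without null animal MUT229. Beside these rises, all 30 acinar markers, 8 of 8 mesenchymal and 8 of 10 duct markers fell in null islets, with medians of -2.44, -2.06 and -2.17, and 10 of 12 pan-endocrine genes rose, with a median of 0.81. Of the beta cell markers 10 of 12 rose, with a median of 1.01, and they took 2.62% to 5.21% of reads in wild-type against 11.8% to 13.6% in null libraries, while of 8 alpha cell markers 1 rose and 1 fell (median -0.35). Their part in the members' differences was not tested. *Scg5*, *Pcsk1* and *Scg3* stand in a heat map that the study drew from these libraries, so they were partly chosen on these samples and their calls are not independent evidence. All 10 members were chosen with earlier results of these data known, so this limit also holds for the other calls and their count.

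When each library was scaled to the 12 pan-endocrine genes, which gives a level relative to these genes, the differences between genotypes became small at both ages. At P1 the members then had log2 fold changes from -0.48 (*Scg3*) to 0.27 (*Pcsk1n*), with a median of -0.16 and 0 calls, and limma adjusted p was 0.121 for *Scg3*. At week 8 they ran from -0.44 (*Pcsk1n*) to 0.40 (*Vgf*), with a median of 0.08 and again 0 calls. *Pcsk1* was at 0.36 ± 0.15 (95% interval 0.03 to 0.69, limma adjusted p = 0.0624), and *Pcsk1n* was at -0.44 ± 0.18 (-0.84 to -0.04, adjusted p = 0.0615). Neither passed, but both depended on the reference, *Pcsk1* being called higher against its 5 genes other than transcription factors and *Pcsk1n* lower against its 7 transcription factors. The signs of *Pcsk2* (0.07 at P1, -0.21 at week 8) and *Pcsk1n* turned at both ages, and that of *Chgb* (-0.10) at week 8. On this scale the median of all genes moved to 0.64 at P1 and -0.69 at week 8, so the median member lay below the median gene at P1 and above it at week 8, and the background became 38.2% of genes higher and 0.197% lower at P1 and 0.470% higher and 52.8% lower at week 8. A p above the threshold does not show that the levels were equal: for *Chga* at week 8 the interval ran from -0.60 to 0.72. On the authors' scale the reference genes themselves had a median of -0.75 at P1 (0 called) and 0.81 at week 8 (10 of 12 called higher). A difference that they share is removed by this scaling. Whether it lay in cell number or in RNA per cell was not tested.

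**Figure D3:**
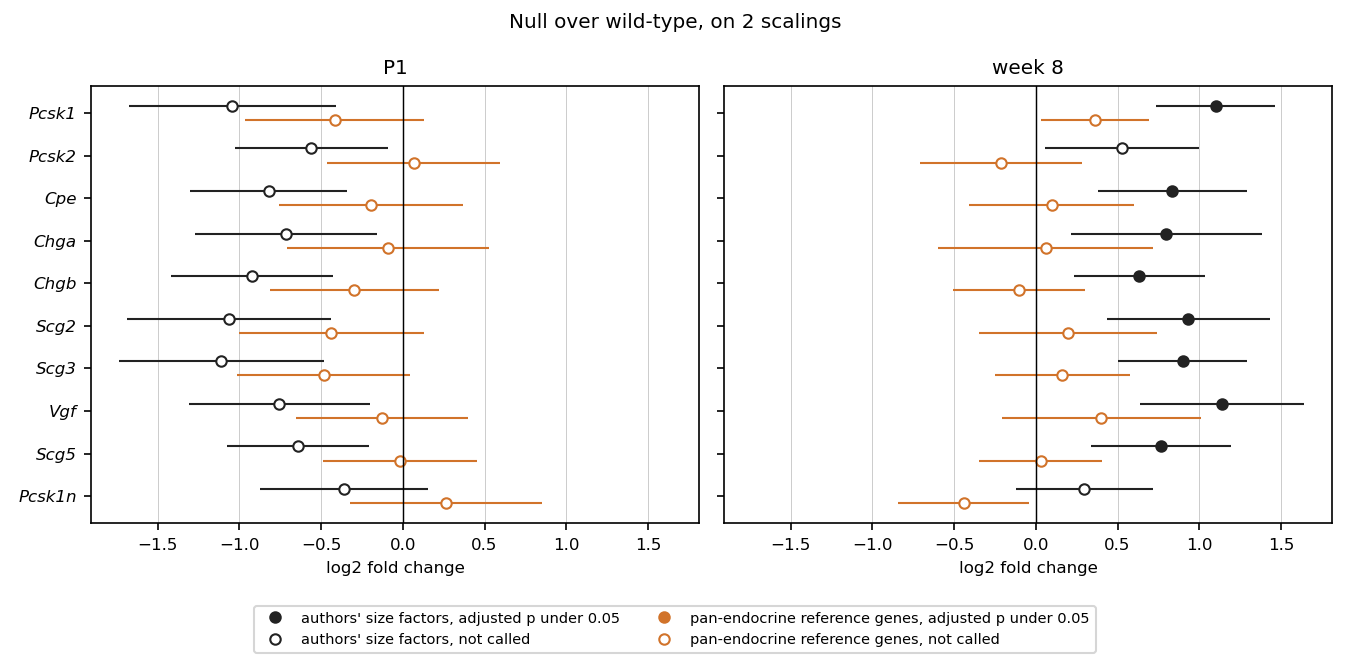
Log2 fold change of null over wild-type islets for the 10 members at P1 (left) and week 8 (right), with 95% intervals from limma. Black points use the authors' size factors and orange points use the 12 pan-endocrine reference genes as the scale, and filled points passed an adjusted p under 0.05. The black points lie below 0 at P1 and above 0 at week 8, 8 of them filled. The orange points lie near 0, none filled, with *Pcsk2* and *Pcsk1n* on the other side of 0 at both ages and *Chgb* at week 8.

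The difference between the ages was itself tested, as the interaction of genotype and age over all 12 libraries. On the authors' scale 9 of 10 members had a null over wild-type ratio that was called higher at week 8 than at P1, against 8.20% of 18338 genes called in that direction and 13.6% in the other. The largest was *Pcsk1* at 2.14 ± 0.35 on the log2 scale (limma adjusted p = 0.00101), followed by *Scg3* at 2.01 ± 0.36 and *Scg2* at 2.00 ± 0.39. *Pcsk1n* was the exception, at 0.66 ± 0.32 (limma adjusted p = 0.165). Between 8 and 10 members were called when each of the 12 libraries was left out in turn, with *Pcsk2* called in 5 of the 12 fits and *Pcsk1n* in 1. On the pan-endocrine scale only *Pcsk1* was called, at 0.78 ± 0.31 (95% interval 0.12 to 1.44, limma adjusted p = 0.0350). There 0.322% of genes were called higher and 67.9% lower, and *Pcsk2* (-0.28) and *Pcsk1n* (-0.71) turned in sign. With so many genes called, the Benjamini-Hochberg adjustment is less strict than on the authors' scale for the same unadjusted p. The call of *Pcsk1* was lost against the 7 transcription factors of the reference alone and kept against its 5 other genes.

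Ratios between members within a library do not depend on the scale, and they were compared for 6 pairs at each age with exact 2-sided permutation tests, whose smallest possible p with 3 against 3 libraries is 0.1. The ratio of *Pcsk1* to *Pcsk2* RNA per kilobase was 0.269, 0.243 and 0.239 in week 8 wild-type libraries and 0.393, 0.338 and 0.389 in null animals. All null animals lay above all wild-type libraries, by 0.58 on the log2 scale (exact permutation p = 0.1, adjusted p = 0.15 over the 6 pairs). The ratio of *Pcsk1n* to *Pcsk1* was 5.55, 6.18 and 6.36 in wild-type and 3.38, 3.67 and 3.31 in null libraries. Here the null animals lay lower without overlap, by -0.80 on the log2 scale (exact permutation p = 0.1, adjusted p = 0.15). At week 8 all 3 null animals thus lay above the wild-type libraries in PC1/3 RNA relative to PC2 RNA and to proSAAS RNA. Neither difference passed, and the permutation test cannot go below p = 0.1 with 3 against 3 libraries. Both ratios hold *Pcsk1*, so they are not separate observations. The share of gene pairs without overlap was not computed. Among single genes 43.6% did not overlap in either direction at week 8 and 23.6% at P1. Markers of the islet cell types moved beside these ratios, as the median log2 fold change was 1.01 for 12 beta and -0.35 for 8 alpha cell markers at week 8 and -0.87 and -0.57 at P1, and the part of the mix of islet cells was not tested.

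The other pairs differed less at week 8. *Scg5* to *Pcsk2*, the chaperone over its convertase, was 0.936, 0.972 and 0.899 in wild-type and 1.20, 1.03 and 1.09 in null libraries, higher by 0.24 on the log2 scale with no overlap, and *Cpe* to *Pcsk2* was higher by 0.31 with no overlap (exact permutation p = 0.1, adjusted p = 0.15 for each). *Chga* to *Chgb* and *Scg2* to *Scg3* overlapped, with log2 differences of 0.16 and 0.03 (exact permutation p = 0.3 and 0.7). At P1 *Chga* to *Chgb* was 3.62, 3.69 and 3.66 in wild-type and 4.25, 4.15 and 4.30 in null libraries, a narrow but separate pair of groups (0.21 on the log2 scale, exact permutation p = 0.1, adjusted p = 0.3). *Cpe* to *Pcsk2* was lower by -0.26 with no overlap (exact permutation p = 0.1, adjusted p = 0.3), and the other 4 pairs overlapped at P1. For *Pcsk1* to *Pcsk2* at P1 the values were 0.231, 0.317 and 0.383 in wild-type and 0.226, 0.192 and 0.237 in null libraries, in the opposite direction to week 8 (-0.48, exact permutation p = 0.2, adjusted p = 0.4).

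**Figure D4:**
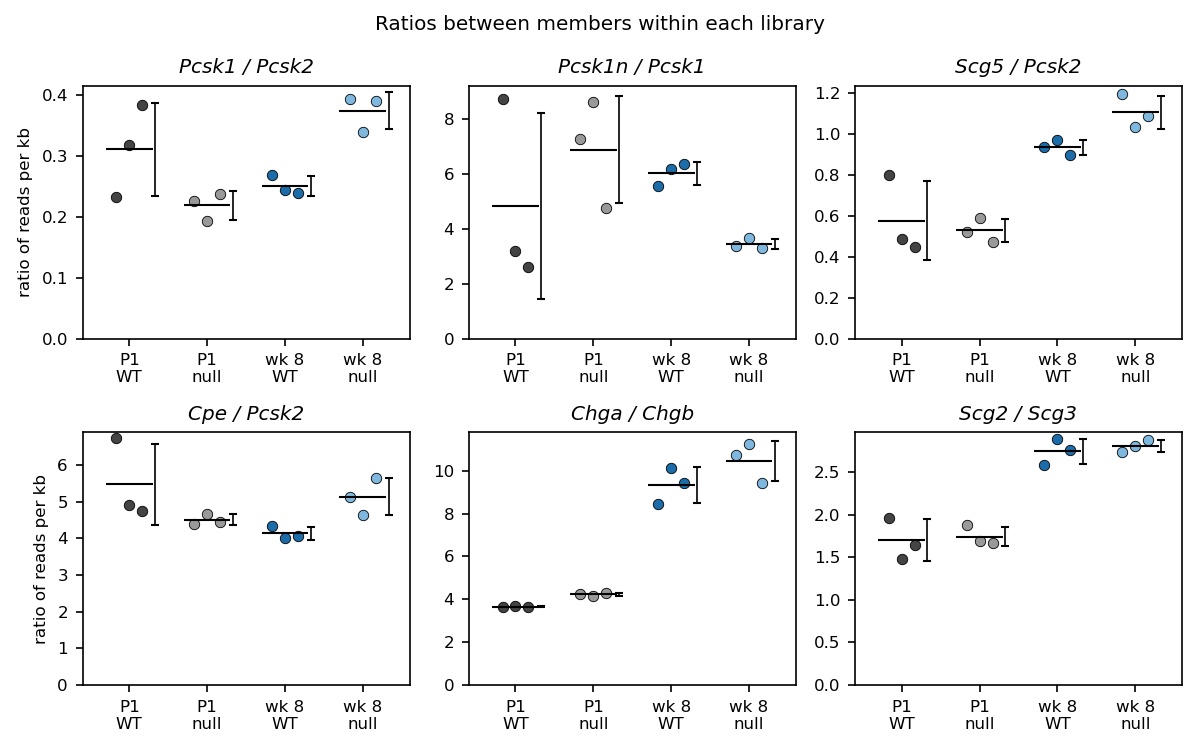
Ratios of reads per kilobase between members within each library (linear axes from 0), with 3 libraries in each of the 4 groups, horizontal lines for means and vertical bars for SD. At week 8 the null points lie above the wild-type points for *Pcsk1* / *Pcsk2*, *Scg5* / *Pcsk2* and *Cpe* / *Pcsk2* and below them for *Pcsk1n* / *Pcsk1*. *Chga* / *Chgb* lies between 3.62 and 4.30 at P1 and between 8.47 and 11.2 at week 8.

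Between P1 and week 8, on the authors' scale, 1 member rose and 2 fell in wild-type islets and 9 of 10 rose in null islets. Scaled to reads outside acinar markers, 0 rose and 4 fell in wild-type islets (*Scg5* no longer called, *Pcsk1* and *Cpe* called lower) and 7 rose in null islets (*Vgf* and *Pcsk1n* no longer called). In wild-type islets *Chgb* fell by 1.02 on the log2 scale (SE 0.21, limma adjusted p = 0.00217) and *Vgf* fell by 1.16 (SE 0.26, limma adjusted p = 0.00360), with no overlap between the ages, against 21.2% of genes without overlap in that direction. *Scg5* rose by 0.73 ± 0.21 (limma adjusted p = 0.0149), and was not called without P1 wild-type library 2, P1 wild-type library 3 or week 8 wild-type library 2. The other 7 ran from -0.41 (*Cpe*) to 0.65 (*Scg2*, limma adjusted p = 0.0841) and were not called. These 1 higher and 2 lower members stand against 15.9% and 16.8% of 18338 genes and are near those shares. In the null islets 9 of 10 members rose, against 21.2% of genes called higher and 25.5% lower, with *Scg2* at 2.64 ± 0.27, *Scg5* at 2.13 ± 0.21, *Scg3* at 1.96 ± 0.25, *Pcsk1* at 1.84 ± 0.25 and *Chga* at 1.83 ± 0.28. *Chgb* was the one not called (0.53 ± 0.21, limma adjusted p = 0.0551), and *Vgf* (0.73 ± 0.26, limma adjusted p = 0.0319) was called in 2 of 6 fits that each left out a library. *Chgb* and *Vgf* turned in sign on the pan-endocrine scale.

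The ages also differed in acinar RNA, from at most 6.85% to at least 49.0% of reads in wild-type islets, and overlapped in null islets. On the pan-endocrine scale, 4 members rose with age in wild-type islets, *Scg5* by 1.24 ± 0.19, *Scg2* by 1.16 ± 0.26, *Chga* by 0.84 ± 0.29 and *Pcsk1n* by 0.74 ± 0.24 (limma adjusted p from 1.54e-04 to 0.0302), against 37.0% of genes called higher and 7.49% lower on that scale. *Chgb* (-0.51) and *Vgf* (-0.64) were no longer called lower. In null islets 5 members rose on that scale, *Scg2* by 1.80 ± 0.26, *Scg5* by 1.29 ± 0.19, *Scg3* by 1.11 ± 0.22, *Pcsk1* by 0.99 ± 0.22 and *Chga* by 0.99 ± 0.29, against 4.55% of genes called higher and 57.4% lower. The 4 of 10 in wild-type islets are near the share of all genes. The reference genes themselves differed with age on the authors' scale. In wild-type islets 7 of 12 were called lower and 1 higher (median -0.61), and the beta cell markers had a median of 0.60. In null islets 11 of 12 were called higher and 1 lower (median 0.95), and the beta cell markers had a median of 2.90. The median of all genes on the pan-endocrine scale was 0.48 in wild-type and -0.85 in null islets. The comparisons in a genotype and the interaction share their libraries.

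**Figure D5:**
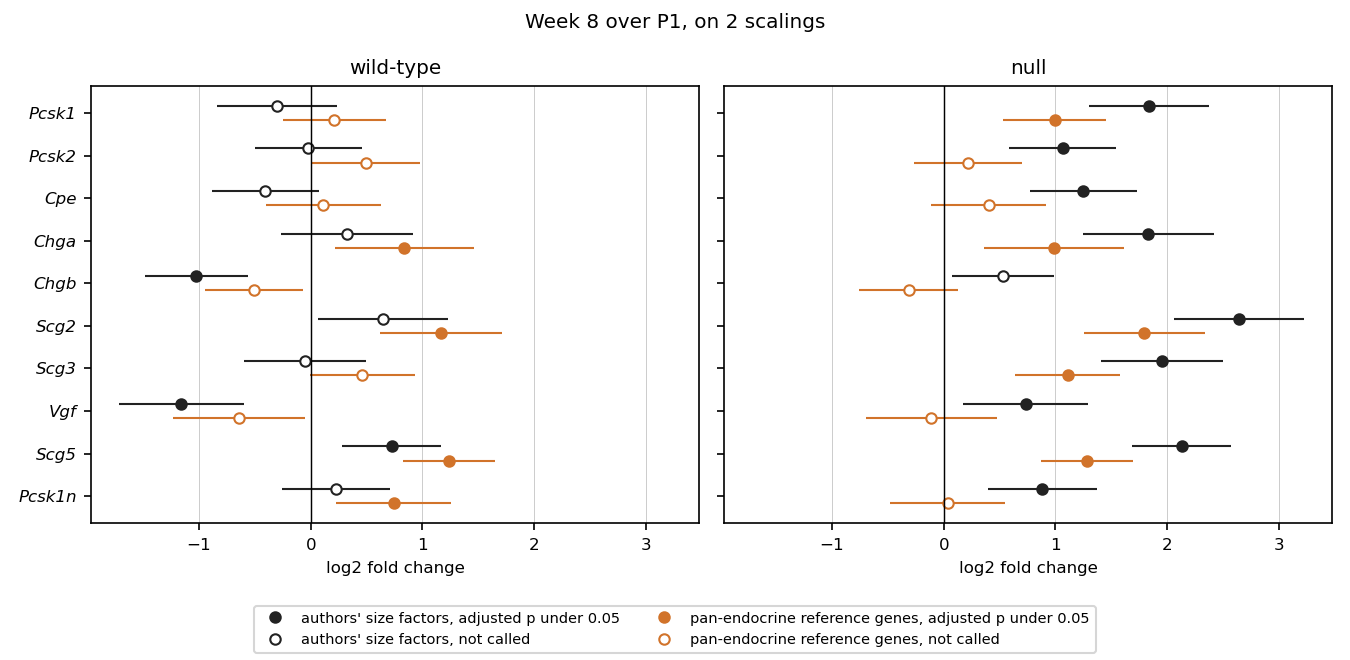
Log2 fold change of week 8 over P1 islets for the 10 members in wild-type (left) and null (right) mice, with 95% intervals from limma, on the authors' size factors (black) and on 12 pan-endocrine reference genes (orange). Filled points passed an adjusted p under 0.05. In wild-type islets the black points spread from -1.16 to 0.73, and in null islets all 10 lie above 0. The orange points of *Pcsk1*, *Pcsk2*, *Cpe* and *Scg3* in wild-type and of *Chgb* and *Vgf* in null islets lie on the other side of 0.

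Around the members, the other genes of the pathway were read from 5 lists. At P1 limma called 0 of their 64 genes, with 17 at an unadjusted p under 0.05, edgeR called 0, and DESeq2 called 9 lower. At week 8 limma called 15 higher and 8 lower on the authors' scale, but 0 higher and 32 lower on the pan-endocrine scale, where the median of all genes was -0.69. These counts stand against 12.3% of all genes higher and 15.8% lower on the authors' scale and 0.470% and 52.8% on the pan-endocrine scale, so the lower counts were near the background. In the granule membrane and acidification list 9 of 15 genes were higher and 0 lower at week 8 (median 0.50), against 0 higher and 4 lower (median -0.23) on the pan-endocrine scale. *Sytl4*, which encodes the granule tethering protein granuphilin, had 2702 ± 672 normalised counts (mean ± SD, n = 3) at week 8 in wild-type against 5901 ± 166 in null islets and rose by 1.16 ± 0.16 (adjusted p = 0.00115). *Slc30a8*, the granule zinc transporter, rose by 0.94 ± 0.17 (adjusted p = 0.00306), and *Ptprn*, the granule membrane protein IA-2, by 0.94 ± 0.17 (adjusted p = 0.00369). *Ptprn* and *Ptprn2* of this list are also among the 12 genes that set the pan-endocrine scale, so their values there are in part fixed by it. The list also held 4 called subunits of the proton pump that acidifies the granule or its accessory proteins, *Atp6v1a*, *Atp6v1b2*, *Atp6v0a1* and *Atp6ap2*. Of the 15 genes that build dense-core granules 3 rose and 1 fell (median 0.11), against 0 higher and 10 lower (median -0.62) on the pan-endocrine scale. *Eipr1* (0.60 ± 0.18, adjusted p = 0.0292), *Arfip1* (0.50 ± 0.12, adjusted p = 0.0134) and *Ica1* (0.39 ± 0.11, adjusted p = 0.0231), which act at the Golgi in granule formation, were higher but turned in sign without a call on the pan-endocrine scale, and *Tmed2*, a cargo receptor of the early secretory pathway, was lower (-1.64 ± 0.46, adjusted p = 0.0242), with 928 ± 46.9 normalised counts in wild-type and 113 to 492 in null libraries, while DESeq2 called 0 genes of the list lower.

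Of 6 other proprotein convertases 0 rose and 1 fell at week 8 by limma (median -0.12, with 1 at an unadjusted p under 0.05), edgeR and DESeq2 each also called 0 higher and 1 lower, and on the pan-endocrine scale 0 were higher and 5 lower (median -0.86). *Furin*, which works along the constitutive pathway in most cells, had 2727 ± 429 normalised counts in wild-type against 1759.7 ± 180.1 in null islets and fell (log2 fold change -0.62 ± 0.14, adjusted p = 0.00984). Of 9 enzymes that trim peptides or modify their ends 1 rose and 4 fell (median -0.25), against 0 higher and 6 lower (median -0.98) on the pan-endocrine scale, beside all-gene shares of 12.3% and 15.8% on the first scale and 0.470% and 52.8% on the other. *Pam*, which amidates peptides, was the one that rose (0.63 ± 0.14, adjusted p = 0.0104), and it was at -0.11 ± 0.16 on the pan-endocrine scale. *Ctsl* (-1.07 ± 0.16, adjusted p = 0.00144), which encodes the lysosomal protease cathepsin L, *Cpz* (-2.83 ± 0.68, adjusted p = 0.0127), a carboxypeptidase outside the cell, and *Qpct* (-1.09 ± 0.29, adjusted p = 0.0204), which forms pyroglutamate, were lower. *Rnpep*, an aminopeptidase, was the other gene that fell.

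Of 19 prohormone genes 2 rose and 2 fell at week 8, with a median of -0.10 against 0.02 for all genes, and on the pan-endocrine scale 0 were higher and 7 lower (median -0.62). The 2 and 2 of 19 are no more than the all-gene shares of 12.3% and 15.8%, and 7 of 19 lower is less than 52.8%. *Iapp* (amylin) had 95166 ± 26775 normalised counts in wild-type against 200113 ± 17456 in null islets and rose by 1.10 ± 0.28 (adjusted p = 0.0165), and *Ucn3* (urocortin 3) rose by 1.02 ± 0.26 (adjusted p = 0.0163). *Gal* (galanin) had 2114 ± 231 and 271 ± 139.6 and fell (-3.06 ± 0.28, adjusted p = 3.08e-04), as did *Nucb2* (nesfatin), at -0.81 ± 0.14 (adjusted p = 0.00306). Neither insulin gene passed, with *Ins1* at 1.00 ± 0.41 (adjusted p = 0.0986) and *Ins2* at 1.08 ± 0.58 (adjusted p = 0.197), and neither did *Gcg* (-0.41 ± 0.44, adjusted p = 0.533) or *Sst* (-0.10 ± 0.28, adjusted p = 0.817). Both insulin genes were still higher in all null libraries, *Ins1* with 241688 to 430003 normalised counts in wild-type and 533928 to 629038 in null islets. Such groups without overlap were found for 21.5% of all genes. DESeq2 called 4 of the 19 prohormone genes higher and 2 lower, against 13.3% and 18.1% of its genes. In the interaction *Ins1* (2.36 ± 0.60, adjusted p = 0.0119) and *Ins2* (2.57 ± 0.72, adjusted p = 0.0208) were called on the authors' scale but not on the pan-endocrine scale (1.00 ± 0.69 and 1.21 ± 0.86), and *Gcg* (-0.06 ± 0.56, adjusted p = 0.957) and *Sst* (1.37 ± 0.50, adjusted p = 0.0677) were not. These values are on the authors' scale, and *Iapp* (0.37 ± 0.34) and *Ucn3* (0.28 ± 0.23) were not called on the pan-endocrine scale.

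The genes whose profile over the 12 libraries was nearest to the mean profile of the members were *Rab37*, *Camk2n1*, *Maneal*, *Dnajc24* and *Grb7*, with root mean square differences of 0.14 to 0.15 on the centred log2 scale among 12928 genes. *Cpe* was itself the member nearest to that mean, at 0.14, and *Vgf* at 0.57, *Scg2* at 0.50 and *Chgb* at 0.48 were the farthest. *Syt13*, *Papss2* and *9330182L06Rik* were nearest to *Pcsk1* (0.16 to 0.20), and *Asah1*, *Bbs2* and *Celf3* to *Pcsk2* (0.11 to 0.13). The libraries share genotype, age and acinar content, and nothing on shared function or control is drawn from this.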

How the data were processed

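RNA sequencing of islets from 4 groups of 3 libraries was analysed, with groups taken from the sample labels. The authors deposited, for each of 18351 genes, a signal per library, namely a normalised count (reads divided by a size factor), with group means. The deposited fold, a ratio of null to wild-type means, its log2 value and the authors' p-values and adjusted p-values were not used. DESeq 1.10.1, bedtools 2.11 and the build mm9 are listed in the processing notes of the submitters. The library kit was strand-specific. The aligner and the counting options were not given in the sources used here.

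Reads were recovered, since 100% of values lay within 0.001 of a whole number of reads. They came to 15212080.0 to 29248285 per library. Because the values are not raw counts, limma 3.58.1 with trend in R 4.3.3 on log2(value + 1) replaced the count test written first, for genes with a mean of at least 1, with p-values adjusted by Benjamini-Hochberg and called under 0.05. Each age had its own fit for the genotypes, and the interaction and age effects came from 1 fit of 12 libraries. The pseudocount makes fold changes of low genes too small. Ratios between members used exact permutation tests. Chi-square tests of counts gave at least 12.8 per degree of freedom within groups, so no library repeated another. Levels between genes used the deposited transcript lengths.

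The members and gene lists were chosen with earlier results of these data known. All 10 members were named, and from each other list at most 3 risen and 3 fallen genes by smallest adjusted p at week 8, with *Ins1*, *Ins2*, *Gcg* and *Sst*. The 5 genes nearest to the mean profile, and 3 each for *Pcsk1* and *Pcsk2*, were taken among genes with a mean of at least 50. Naming the 4 proton pump genes, *Rnpep* and the list extremes was decided after their values were seen. Of the list of other convertases 1 gene is not reported here, and the counts leave it out. The pan-endocrine reference was *Isl1*, *Neurod1*, *Insm1*, *Pax6*, *Nkx2-2*, *Rfx6*, *Myt1*, *Ptprn*, *Ptprn2*, *Snap25*, *Scgn* and *Stx1a*. Alternatives were 3 other scalings (upper quartile, pan-endocrine genes, reads outside acinar markers), other filters, pseudocounts of 0.1 and 10, an adjusted p of at most 0.1, edgeR 4.0.16 and DESeq2 1.42.0 on recovered reads, a joint fit, a replicate block and leaving out each library. Splitting the reference into transcription factors and other genes was chosen after seeing the data. Scripts were tested on simulated data. Tables and plots used Python 3.11.15, pandas 2.3.3 and matplotlib 3.10.9, and no library was left out. Promoters came from RefSeq, GRCm38.p6.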

Additional observations from a re-analysis of the deposited data

Results flagged for a closer look

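The effect of genotype differed between P1 and week 8 by the test of the difference itself (limma interaction, adjusted p under 0.05) for 9 of the 10 members. The log2 fold change of null over wild-type islets was higher at week 8 than at P1 by 2.14 for *Pcsk1*, 2.01 for *Scg3*, 2.00 for *Scg2*, 1.89 for *Vgf*, 1.65 for *Cpe*, 1.56 for *Chgb*, 1.51 for *Chga*, 1.41 for *Scg5* and 1.08 for *Pcsk2*, against 8.20% of all genes called in this direction. The acinar share of reads went the other way, higher in null islets at P1 and lower at week 8, and its part was not tested. The beta cell markers and the pan-endocrine genes were each called in this direction for 10 of 12, with medians of 1.77 and 1.51 against 1.61 for the members. On the pan-endocrine scale *Pcsk1* alone was called, at 0.78. There 67.9% of genes were called lower, which makes the adjustment of p less strict. Age cannot be told apart from pooling of mice.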

How the results depend on the processing

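Scaling to endocrine genes was the choice that mattered most. With the pan-endocrine reference members called higher numbered 0 at week 8, 1 in the interaction, 4 for age in wild-type (0 lower) and 5 for age in null islets, and genes called in all numbered 7013 at P1 (99.5% higher, against 83.3% of 12), 9646 at week 8 (0.881% higher, against 43.9% of 5094), 12511 in the interaction (0.472% higher, against 37.7% of 3990.0), while 83.2% (against 48.6%) and 7.34% (against 45.3%) of calls were higher for age in wild-type and null islets. Signs turned for *Pcsk2* 0.067, *Pcsk1n* 0.27 at P1, *Pcsk2* -0.21, *Chgb* -0.10, *Pcsk1n* -0.44 at week 8, *Pcsk2* -0.28, *Pcsk1n* -0.71 in the interaction, *Pcsk1* 0.21, *Pcsk2* 0.50, *Cpe* 0.11, *Scg3* 0.46 for age in wild-type and *Chgb* -0.32, *Vgf* -0.11 for age in null islets. Against the transcription factors of the reference alone, 0 members were higher and 1 (*Pcsk1n*) lower both at week 8 (11023 genes called) and in the interaction (14005 genes), and signs turned for *Pcsk2* -0.35, *Cpe* -0.045, *Chga* -0.081, *Chgb* -0.25, *Scg5* -0.11, *Pcsk1n* -0.58 at week 8 and *Pcsk2* -0.61, *Cpe* -0.038, *Chga* -0.18, *Chgb* -0.14, *Scg5* -0.28, *Pcsk1n* -1.04 in the interaction. Against the other reference genes, 1 member (*Pcsk1*) was called at week 8 and 4 (*Pcsk1*, *Scg2*, *Scg3*, *Vgf*) in the interaction (8787 genes), and signs turned for *Pcsk2* -0.014, *Pcsk1n* -0.24 at week 8 and *Pcsk1n* -0.25 in the interaction. Scaling to reads outside acinar markers gave 0 members higher and 4 lower for age in wild-type, with *Chga* at -0.071 and *Pcsk1n* at -0.17, and moved the median of all genes to -0.40 there and -0.37 in null islets, with 19.0% and 23.2% of calls higher.

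At P1 the genes called, 12 in the main test, were 19 with upper quartile scaling, 4 and 19 with pseudocounts of 0.1 and 10, 116 at an adjusted p of at most 0.1, 602 with DESeq2 and 135 with all 12 libraries in 1 fit, while DESeq2 called 5 members lower. For age in wild-type, members higher were 2 with DESeq2 and 2 at an adjusted p of at most 0.1, and values near 0 changed sign for *Pcsk2* (0.052) and *Scg3* (0.010) with edgeR, for *Pcsk2* (0.011) with DESeq2, and for *Pcsk2* (range -0.24 to 0.13 over the left-out libraries) without P1 wild-type 3, week 8 wild-type 1 or week 8 wild-type 3, and for *Scg3* (-0.23 to 0.060) without either of the latter. *Chga* at week 8 was not called without the filter, with a pseudocount of 10 or with edgeR.

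Leaving out each library in turn gave 0 to 2 members lower and 0 to 245 genes called at P1, with 0 without wild-type 2, null 1 or null 2, 79 without wild-type 3, 194 without null 3 and 245 without wild-type 1. At week 8 it gave 3 to 10 members higher and 2676 to 6267 genes, with 2676 without wild-type 3, 3168 without null MUT218 and 3126 without null MUT229. It gave 8 to 10 members in the interaction, 0 to 1 higher and 2 to 2 lower for age in wild-type and 8 to 10 for age in null islets. The ratio of *Scg5* to *Pcsk2* at P1 ran from -0.24 to 0.18 on the log2 scale, positive without wild-type 1, and *Scg2* to *Scg3* from -0.047 to 0.16 at P1 (below 0 without wild-type 2 or null 1) and from -0.0075 to 0.072 at week 8 (below 0 without wild-type 1). The other ratios kept their direction.

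At P1 the replicate numbers are shared between genotypes, but samples with the same number did not deviate together (correlations 0.0047, -0.017 and -0.023 over 18235 genes), so the numbers were not taken as pairs. With the replicate block 0 members and 15 genes were called. No paired analysis was possible at week 8 because the null animals' numbers are not shared. With 3 libraries a group, the 95% intervals set the size of difference that could be resolved.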
